A study of Mus musculus with 5 samples.

Results

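Axons and dendrites are supplied along microtubules by motor proteins. The genes of these motors were followed here in ribosome-bound RNA from a midbrain pull-down aimed at dopaminergic neurons. The mice were with or without deletion of Esrrg, the gene of estrogen-related receptor gamma (ERRγ). The motor genes were taken by name, as the protein-coding genes of the count table whose symbol begins with Kif and a digit or with Kifc, Kifap, Klc, Dync, Dynl or Dctn. This rule gave 70 genes out of 53700 gene IDs in the table, of which 21929 were named protein-coding genes. Of the 70, 48 belonged to the kinesins with their light chains and associated proteins, 16 were cytoplasmic dynein subunits or light chains, and 6 were dynactin subunits. Kif1bp entered through its symbol although it codes for a kinesin-binding protein and not a motor, and 5 further genes with these prefixes were pseudogenes or antisense transcripts and were left out.

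All mice were C57BL/6, 4 months old, and carried the L10a transgene, a ribosomal protein fused to EGFP that is made only where Cre recombinase is active. All received AAV:THCre in the midbrain, a virus in which the tyrosine hydroxylase promoter drives Cre, so the tag marked virus-transduced cells that use this promoter and not a cell type as such. Mice of genotype L10a;Esrrg WT kept both Esrrg alleles and mice of genotype L10a;Esrrg Flox lost exon 2 of Esrrg to the same Cre, with tissue taken 1 month later. Tagged ribosomes were pulled down from pooled midbrains by bacterial artificial chromosome translating ribosome affinity purification (BAC-TRAP), and there were 3 WT libraries (replicates 2, 3 and 4) and 2 Flox libraries (replicates 2 and 4), each from a pool of several mice.

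Kinesins use ATP to walk along microtubules, most of them toward the plus end, which in axons points away from the cell body, and each family carries its own set of cargoes such as mitochondria, synaptic vesicle precursors or membrane vesicles. Cytoplasmic dynein carries cargo the other way and needs dynactin, a large multi-subunit complex, together with an adaptor to move over long distances. Dopaminergic neurons have very long and highly branched axons, and mutations in the human genes of KIF5A, KIF1A, DYNC1H1 and DCTN1 cause diseases of the nervous system.

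The libraries held between 20635855 and 23105058 assigned counts, of which the motor genes took between 1.04% and 1.13%. A library of this depth allows a gene with no counts to be present at up to 0.130 to 0.145 CPM (counts scaled to library size), which corresponds to 3 counts and covers counting error only. Th, the enzyme that marks dopaminergic neurons, had 9849 to 12813 normalized counts in WT and 10224 and 10945 in Flox. Esrrg itself had 1763, 1643 and 1726 normalized counts in WT and 1504 and 1170.1 in Flox, which gives a log2 fold change of -0.35 (SE 0.13) at an adjusted p of 0.0753 in DESeq2, but these totals include every exon and so do not measure the loss of exon 2. The libraries also held RNA of other cells. In WT, 12 dopaminergic markers summed to 51558 to 61481 normalized counts and 6 GABAergic markers to 32115 to 32519. The sums were 74828 to 109197 for 9 astrocyte markers and 110260 to 163134 for 8 oligodendrocyte markers. Sums over different genes do not give shares of cells, but levels of motor genes here are not those of dopaminergic neurons alone. Some markers of other cells moved with the genotype. The summed level of 12 microglia markers was 1886 to 3677 normalized counts in WT, 6578 in Flox replicate 2 and 14703 in Flox replicate 4, and 10 of the 12 were higher in Flox, while 3 of 8 endothelial markers were higher (summed level 128 to 288 against 300.0 and 770.4). Of the tested markers of astrocytes (9), oligodendrocytes (8) and ependymal and ciliated cells (7), 0 passed in DESeq2 or in edgeR, and 1 astrocyte marker had an unadjusted p under 0.05 in each tool and 1 ependymal marker in edgeR alone. Of 12 dopaminergic markers Ret alone passed, with a lower level, of 6 GABAergic markers Sst was higher and Gad2 lower, and of 3 glutamatergic markers 0 passed in DESeq2 or edgeR, with 0 at an unadjusted p under 0.05 in either tool. No marker on these lists was at 0 in all 5 libraries. The part of these shifts in the results on motor genes was not tested. Fewer cells of a type and less RNA per cell cannot be told apart in such samples. Each library is a pool, so the p-values measure the spread between pools.

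The question put to the motor genes was which of them differ in level after the loss of Esrrg. Of the 70 genes, 69 had counts in some library (Kif2b had none), 60 had a mean of at least 10 normalized counts and 59 received an adjusted p. At an adjusted p under 0.05 in DESeq2, 3 were higher in Flox (Dync1i2, Kif21a and Kif5b) and 4 were lower (Dctn1, Kif3c, Kifc3 and Klc2), against 8.25% of all 15724 genes tested, 4.2% being higher and 4.05% lower. Among the 30 motor genes with a mean of at least 1000 normalized counts 6 passed, against 15.2% of the 4612 genes of that abundance. With a fold change of at least 1.5 as well, 3 remained (Kifc3, Dctn1 and Kif3c), all lower in Flox, against 3.18% of all genes tested, 1.77% higher and 1.41% lower. The motor genes that passed were 11.9% of the 59 tested, and 5.08% with the fold threshold. An unadjusted p under 0.05 was reached by 14 of the 59 in DESeq2 and by 17 in edgeR. Among all 15724 genes tested, 3192 reached it in DESeq2 and 3694 in edgeR. This background stands beside every count at an unadjusted p under 0.05 from these 2 fits. The median log2 fold change of the 60 genes was 0.00, beside -0.005 over all 16178 genes at this level.

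**Figure D1:**
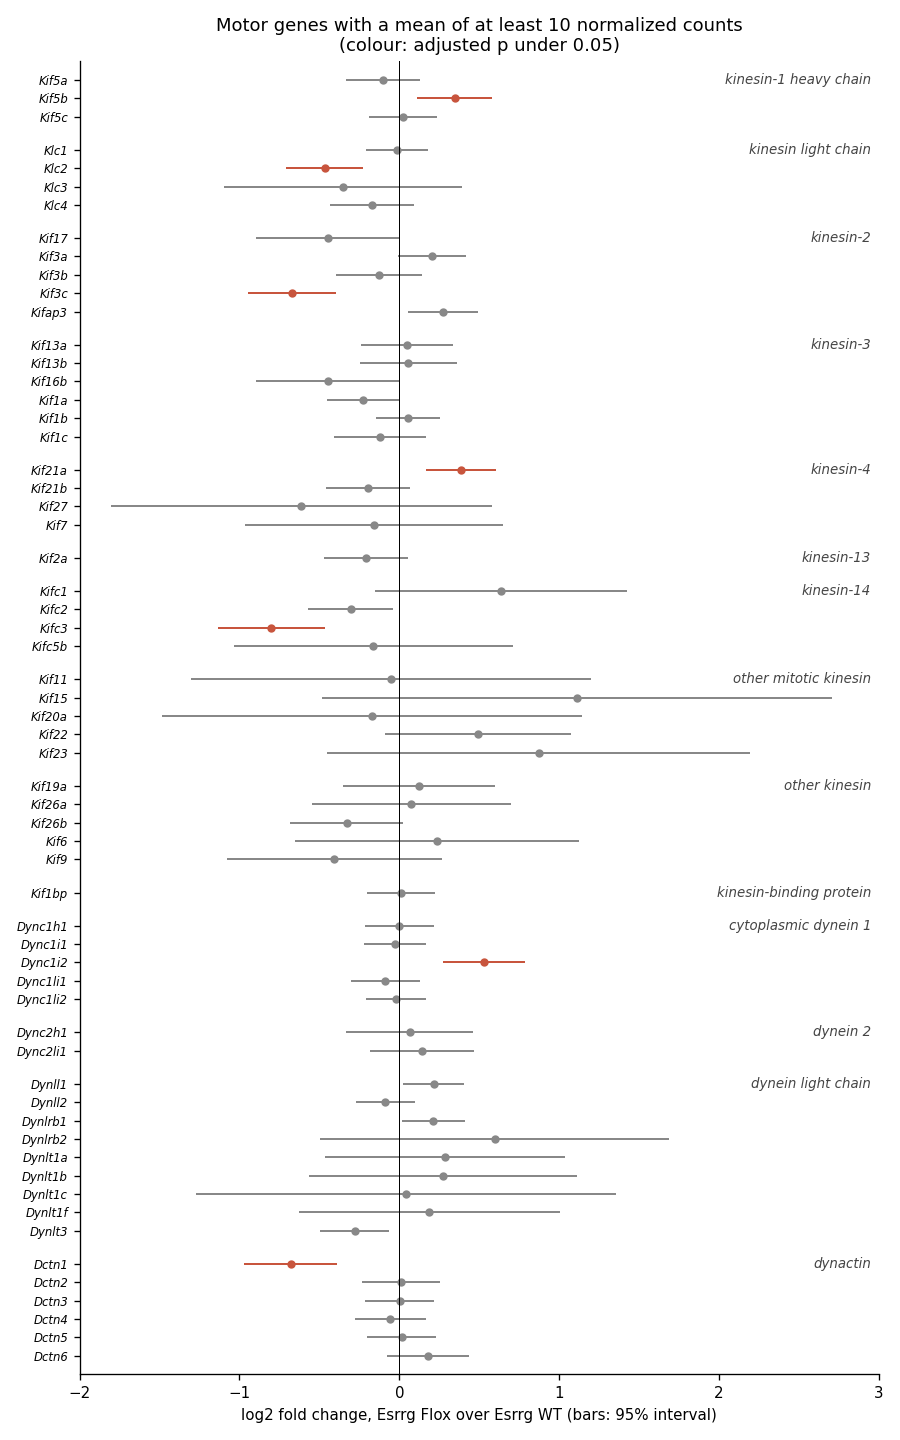
Log2 fold change of Esrrg Flox over Esrrg WT for the 60 motor genes with a mean of at least 10 normalized counts, grouped by family. Points are DESeq2 estimates, bars are 95% intervals, and colour marks the 7 genes with an adjusted p under 0.05, of which 3 lie to the right of 0 and 4 to the left.

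In 12 of the 60 genes both Flox libraries lay above every WT library and in 12 they lay below, against 20.0% and 22.0% of all genes at this level. All 7 genes that passed are among these 24. In each of the 7, Flox replicate 4 lay farther from the WT libraries than Flox replicate 2. Without Flox replicate 4, 0 of the 7 passed in DESeq2 (6 had an unadjusted p under 0.05), in a fit where 0.674% of 10689 genes passed. Without Flox replicate 2 all 7 passed, in a fit where 10.8% of genes passed. In edgeR's quasi-likelihood test, where 1.65% of genes passed, 2 of the 7 passed (Kif3c and Kifc3) and all 7 had an unadjusted p under 0.05.

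**Figure D2:**
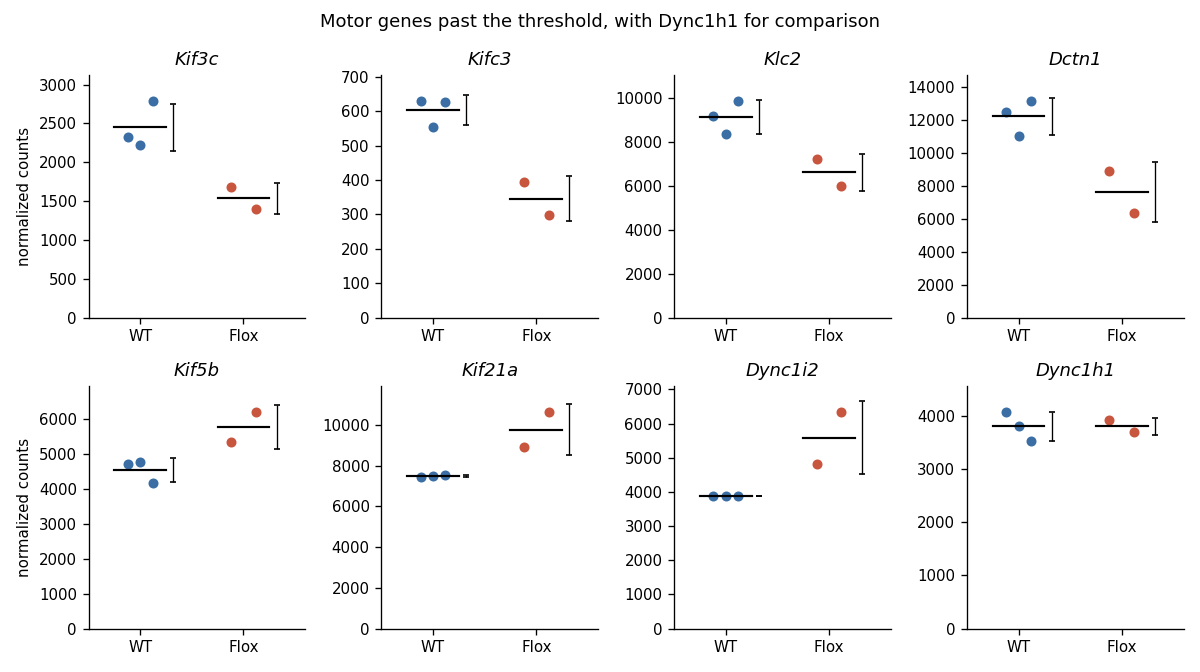
Normalized counts in each library for the 7 motor genes past an adjusted p of 0.05 and for Dync1h1, the dynein heavy chain, whose groups overlap. Points are libraries, horizontal lines are means and error bars are SD (3 WT and 2 Flox libraries), and in the first 7 panels every Flox point lies beyond all WT points.

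In the kinesin-2 family 1 subunit was lower in Flox and the others did not pass. Within this family, Kif3a pairs with an unlike heavy chain, Kif3b or Kif3c. Kifap3 is the accessory subunit of these pairs and binds cargo. Kif3c (ENSMUSG00000020668.11, chromosome 12) had 2328, 2227 and 2791 normalized counts in WT and 1678 and 1398 in Flox. Both Flox libraries lay below the lowest WT library, and the log2 fold change was -0.67 (SE 0.138, DESeq2 adjusted p = 0.000164, edgeR adjusted p = 0.0444), or -0.55 without Flox replicate 4. Kif3c is a gene that the study picked for follow-up on these same libraries, so its fall here is not independent evidence. The study also reported Kif3c as raised by Esrrg overexpression in the cell line SH-SY5Y. By quantitative PCR of midbrain homogenates it reported Kif3c as lower after Esrrg knockdown with another Cre virus, and not as raised by Esrrg overexpression. Kif3a had 4941, 5003 and 5063 normalized counts in WT and 5306 and 6208 in Flox, which puts both Flox libraries above WT, but the log2 fold change of 0.20 (SE 0.106) did not pass (DESeq2 adjusted p = 0.260). Kifap3 had 5493, 5882 and 5637 normalized counts in WT and 6283 and 7433 in Flox, again without overlap and short of the threshold (log2 fold change 0.27, SE 0.109, DESeq2 adjusted p = 0.0998). Kif3b had a log2 fold change of -0.13 (SE 0.134) with overlapping groups. Kif17, which carries receptor vesicles in dendrites, had 286, 286 and 241 normalized counts in WT and 242 and 155 in Flox, with overlap and a log2 fold change of -0.45 (SE 0.226, DESeq2 adjusted p = 0.238).

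The transcription start regions of the partners are shown because Kif3c and Kif3a code for partners in the same motor and lay on opposite sides of their WT values. They come from RefSeq on GRCm38.p6 and run from 250 bases before the start to 50 after it, on the plus strand in both cases. Kif3c lies at chr12:3364882-3365181 and Kif3a at chr11:53567119-53567418, and capitals mark CG dinucleotides.
Kif3c: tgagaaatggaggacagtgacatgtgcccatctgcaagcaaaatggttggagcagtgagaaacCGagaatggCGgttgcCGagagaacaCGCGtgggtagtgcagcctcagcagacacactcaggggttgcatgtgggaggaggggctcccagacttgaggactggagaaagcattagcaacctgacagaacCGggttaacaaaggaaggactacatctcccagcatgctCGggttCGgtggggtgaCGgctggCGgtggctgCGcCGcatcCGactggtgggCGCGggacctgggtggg
Kif3a: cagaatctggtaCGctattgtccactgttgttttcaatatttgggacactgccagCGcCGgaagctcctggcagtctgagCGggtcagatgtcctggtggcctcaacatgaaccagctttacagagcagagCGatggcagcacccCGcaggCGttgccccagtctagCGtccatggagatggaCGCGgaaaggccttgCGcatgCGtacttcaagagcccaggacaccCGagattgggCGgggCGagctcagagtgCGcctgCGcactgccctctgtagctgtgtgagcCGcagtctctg
The window of Kif3c holds 15 CG dinucleotides and that of Kif3a holds 18, against a median of 7 over all RefSeq windows of this length. ERRγ is a transcription factor that binds the extended half-site TNAAGGTCA. Searched on both strands, these letters were found in 0 of the 59 windows of motor genes (52 genes had a window) and in 1.28% of all 32851 windows. The shorter core AAGGTCA, which lies within the longer motif, was in 1 motor gene window, that of Kif6, and in 4.72% of all windows. Of the 7 genes past the threshold, 4 had a window (Kif3c, Dctn1, Dync1i2 and Kif21a). These matches describe letters in a short window and say nothing of binding.

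Kinesin-1 carries mitochondria and vesicles outward and is built from paired heavy chains, coded by Kif5a, Kif5b and Kif5c, and paired light chains that link it to cargo, coded by Klc1, Klc2, Klc3 and Klc4. Of the heavy chains, Kif5b (ENSMUSG00000006740.15, chromosome 18), the form found in all tissues, had 4702, 4775 and 4160 normalized counts in WT and 5335 and 6214 in Flox. Both Flox libraries were higher than all WT libraries, and the gene rose by a log2 fold change of 0.35 (SE 0.115, DESeq2 adjusted p = 0.0387, edgeR adjusted p = 0.0937), or 0.23 without Flox replicate 4. The neuronal heavy chains did not pass. Kif5a had a log2 fold change of -0.10 (95% interval -0.33 to 0.12) and Kif5c one of 0.02 (95% interval -0.18 to 0.23), with overlapping groups in both.

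Among the light chains, Klc2 (ENSMUSG00000024862.17, chromosome 19) had 9194, 8356 and 9869 normalized counts in WT and 7214 and 6007 in Flox. The groups did not overlap, and Klc2 fell by a log2 fold change of -0.47 (SE 0.12, DESeq2 adjusted p = 0.00396, edgeR adjusted p = 0.0587), or -0.34 without Flox replicate 4. Klc1, the most abundant light chain, had 27563, 25884 and 28441 normalized counts in WT and 26104 and 27955 in Flox, a log2 fold change of -0.01 (95% interval -0.20 to 0.17). Klc3 and Klc4 had log2 fold changes of -0.35 (SE 0.377) and -0.17 (SE 0.131), and neither passed.

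The retrograde motor and its activator each had 1 subunit past the threshold, in opposite directions. Dctn1 (ENSMUSG00000031865.17, chromosome 6) codes for p150Glued, the dynactin subunit that binds both microtubules and the dynein intermediate chain. It had 12486, 11012 and 13176 normalized counts in WT and 8919 and 6337 in Flox. Both Flox libraries were below every WT library, and the log2 fold change was -0.68 (SE 0.146, DESeq2 adjusted p = 0.000319, edgeR adjusted p = 0.0514), or -0.46 without Flox replicate 4. The other 5 dynactin genes of the list, Dctn2 to Dctn6, had log2 fold changes between -0.06 and 0.18 with overlapping groups. Dctn2, which codes for dynamitin, the shoulder subunit, had 5920, 5851 and 7271 normalized counts in WT and 6212 and 6576 in Flox. Dctn3, for the smallest shoulder subunit, had a log2 fold change of 0.00 (SE 0.105). Dctn4 (-0.06), Dctn5 (0.01) and Dctn6 (0.18), which code for subunits at the pointed end, had log2 fold changes with SEs between 0.106 and 0.128. Of the 6 dynactin subunits whose symbols fall outside the name rule, namely the actin-related proteins Actr1a, Actr1b and Actr10 and the capping proteins Capza1, Capza2 and Capzb, 0 passed in DESeq2 or edgeR and 2 had an unadjusted p under 0.05 in each tool. Capza1 was nearest, with a log2 fold change of -0.36 (SE 0.126, DESeq2 adjusted p = 0.0516).

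Dync1i2 (ENSMUSG00000027012.16, chromosome 2), an intermediate chain of cytoplasmic dynein 1, the subunit that binds the product of Dctn1, had 3878, 3873 and 3871 normalized counts in WT and 4831 and 6350 in Flox. The WT libraries were nearly level and both Flox libraries lay above them. Dync1i2 rose by a log2 fold change of 0.53 (SE 0.127, DESeq2 adjusted p = 0.00176, edgeR adjusted p = 0.0524), or 0.31 without Flox replicate 4. The neuronal intermediate chain Dync1i1 had 4564, 4446 and 4452 normalized counts in WT and 4585 and 4232 in Flox, a log2 fold change of -0.03 (95% interval -0.21 to 0.16). Dync1h1, the heavy chain with the motor domain, had 4088, 3816 and 3536 normalized counts in WT and 3926 and 3700.1 in Flox, so that both Flox values fell within the WT range (log2 fold change 0.00, 95% interval -0.21 to 0.21). The light intermediate chains Dync1li1 (-0.09, SE 0.107) and Dync1li2 (-0.02, SE 0.093), which bind cargo adaptors, had log2 fold changes near 0.

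The dynein light chains, small dimers that hold the intermediate chains together, gave 0 genes past the threshold in DESeq2 or edgeR among 9, with 3 at an unadjusted p under 0.05 in each tool. Dynll1 had 5740, 6253 and 6233 normalized counts in WT and 7092 and 6999 in Flox, without overlap (log2 fold change 0.21, SE 0.0955, DESeq2 adjusted p = 0.163). Dynlrb1, of the roadblock family, also had both Flox libraries above WT (log2 fold change 0.21, SE 0.098, DESeq2 adjusted p = 0.183). Dynlt3, a Tctex-type light chain, had 5522, 5535 and 6070 normalized counts in WT and 5022 and 4381 in Flox, below WT without passing (log2 fold change -0.28, SE 0.108, DESeq2 adjusted p = 0.0878). The lowly expressed Dynlrb2 had 14.7, 19.4 and 16.3 normalized counts in WT and 25.0 and 25.8 in Flox, a log2 fold change of 0.60 with an SE of 0.554. Dynlt1a, Dynlt1b, Dynlt1c and Dynlt1f are near-identical copies whose reads may be split or lost in counting, and their levels of 12.2 to 77.8 normalized counts are uncertain. Of the genes named Tctex1d2, Tctex1d1 and Tctex1d4 in this annotation, which code for further light chains outside the name rule, Tctex1d2 rose from 460, 469 and 452 normalized counts in WT to 598 and 683 in Flox, which gives a log2 fold change of 0.48 (SE 0.143) at an adjusted p of 0.0178 in DESeq2, and the other two had under 10 normalized counts in every library.

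For dynein 2, the motor of cilia, only the heavy, intermediate and light intermediate chains are counted here, and light chains such as Tctex1d2 are given above. Dync2h1 and Dync2li1 had log2 fold changes of 0.06 and 0.14 (SEs 0.199 and 0.161). Neither passed in DESeq2 or edgeR, with 0 of 2 at an unadjusted p under 0.05 in either tool. The intermediate chains listed as Wdr60 (0.34, SE 0.198) and Wdr34 (-0.02, SE 0.12) did not pass either.

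Kinesin-14 motors walk toward the minus end. Kifc3 (ENSMUSG00000031788.15, chromosome 8), a kinesin of this family, had the lowest log2 fold change of the 7 genes, with 630.0, 554 and 625 normalized counts in WT and 393 and 299 in Flox. The groups were well apart, and the log2 fold change was -0.80 (SE 0.167, DESeq2 adjusted p = 0.000191, edgeR adjusted p = 0.0436), or -0.62 without Flox replicate 4. Kifc2, the more abundant neuronal member, had 5305, 5210.4 and 4374 normalized counts in WT and 4449 and 3591 in Flox, with overlap (log2 fold change -0.30, SE 0.132, DESeq2 adjusted p = 0.147). Kifc1 and Kifc5b share near-identical sequence and their low counts are uncertain.

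Of the kinesin-4 family, Kif21a (ENSMUSG00000022629.18, chromosome 15), which restrains the growth of microtubule ends, had 7453, 7474 and 7529 normalized counts in WT and 8894 and 10655 in Flox. All WT libraries sat close together below both Flox libraries, and Kif21a rose by a log2 fold change of 0.38 (SE 0.108, DESeq2 adjusted p = 0.00939, edgeR adjusted p = 0.0636), or 0.25 without Flox replicate 4. Its paralog Kif21b had a log2 fold change of -0.20 (SE 0.13, DESeq2 adjusted p = 0.427). Kif7 and Kif27, which act in Hedgehog signalling and cilia, had at most 45.3 normalized counts in any library. Kif27 had 1 of the 5 lowest log2 fold changes among the 60 genes with a mean of at least 10 normalized counts, at -0.61 with an SE of 0.605.

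In the kinesin-3 family, whose neuronal members carry synaptic vesicle precursors and dense core vesicles, 0 of 6 tested genes passed in DESeq2 or edgeR, and 1 had an unadjusted p under 0.05 in each tool, Kif1a in DESeq2 and Kif16b in edgeR. Kif1a had 18723, 18348 and 16493 normalized counts in WT and 16445 and 14067 in Flox, with both Flox libraries below the lowest WT library (log2 fold change -0.23, SE 0.111, DESeq2 adjusted p = 0.216). Kif1b, which carries mitochondria and vesicles, had a log2 fold change of 0.06 (SE 0.0997), and Kif13a and Kif13b had 0.05 and 0.06. Kif16b, a motor of endosomes, had a log2 fold change of -0.44 (SE 0.227, DESeq2 adjusted p = 0.247). Kif2a, a kinesin-13 that takes microtubules apart at their ends, had a log2 fold change of -0.21 (SE 0.13) and did not pass.

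The kinesins of cell division had low levels, with a sum of 214 to 272 normalized counts in WT and 310.2 to 327 in Flox over 14 genes. Of the 6 tested, 0 passed in DESeq2 or edgeR, and 0 had an unadjusted p under 0.05 in DESeq2 and 3 in edgeR (Kifc1, Kif22 and Kif23). In 4 of the 7 with a mean of at least 10 normalized counts both Flox libraries were above WT, against 20.0% of all genes at this level. The highest log2 fold changes among the 60 motor genes at this level belonged to this group, with 1.11 for Kif15 (SE 0.81), 0.87 for Kif23 (SE 0.671) and 0.64 for Kifc1 (SE 0.398). Kif15 had 7.37, 5.10 and 8.65 normalized counts in WT and 9.61 and 20.9 in Flox, too few for an adjusted p. Of 7 tested markers of cell division, Mki67 (log2 fold change 2.15, SE 0.46, adjusted p = 0.000318 in DESeq2) and Top2a (1.96, SE 0.584, DESeq2 adjusted p = 0.0168) rose, and the sum of all 12 listed was 215 to 277 normalized counts in WT and 396 to 440.4 in Flox. The part of dividing cells in the levels of these kinesins was not tested.

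Levels of different motor genes can be set side by side only per length, as normalized counts per kilobase of exon. The length used was that of all exon bases annotated for a gene, over all its transcripts together. It was 8280 bases for Dync1i2 and 3572 for Dync1i1, so levels per kilobase and their order depend on the annotation. On this scale the most abundant motor gene in WT was Dynll2, with a mean of 16913, followed by Dynlrb1 with 8666, Klc1 with 6707 and Dctn3 with 3684. The WT values of these 4 did not overlap with one another. Dynlt3 (2216), Klc2 (2211) and Kif5a (2164) came next and could not be ordered, since their WT libraries overlapped, as did those of Kif1a (1914) and Dctn1 (1878). Dync1h1, with 244 normalized counts per kilobase, was far below its intermediate chains Dync1i1 (1256) and Dync1i2 (468).

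**Figure D3:**
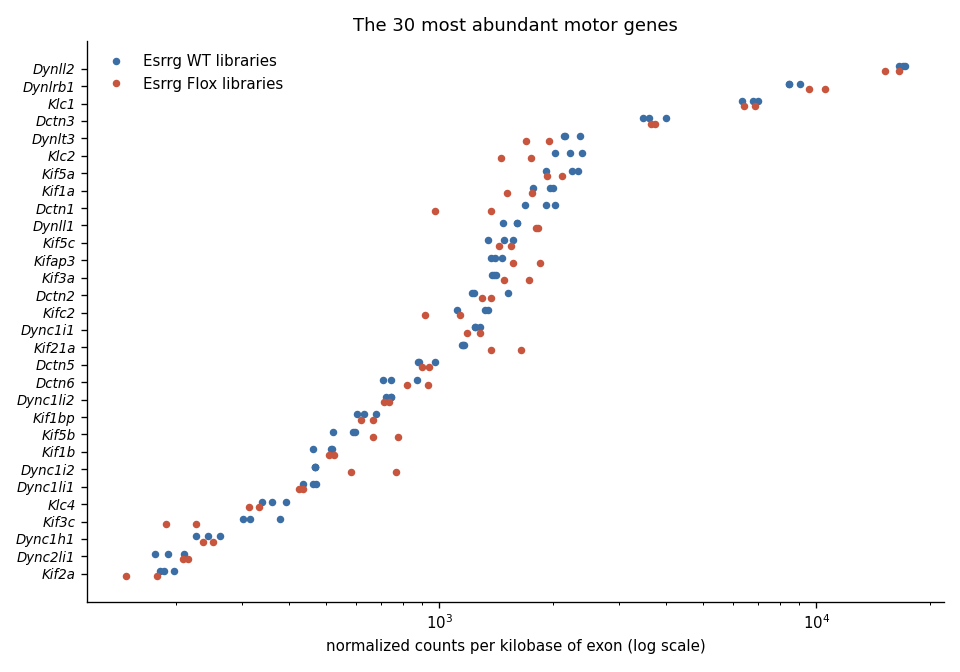
Normalized counts per kilobase of exon on a log scale for the 30 motor genes with the highest mean level in WT, with 1 point for each library. Dynll2 has the highest level at a WT mean of 16913, and the Flox points of Dctn1, Klc2 and Kif3c lie to the left of their WT points while those of Kif21a, Kif5b and Dync1i2 lie to the right.

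Within the same scale, RNA levels of subunits or paralogs were compared in pairs, as ratios in each library. The size of a ratio or share depends on the annotated lengths, which are the same for every library, and does not give the makeup of a complex. These pairs were chosen after the values of the single genes were seen, so the ratios describe those values in another form and were not tested. Kif3c stood at 0.228, 0.216 and 0.267 of the level of Kif3a in WT and at 0.153 and 0.109 in Flox. Klc2 stood at 0.328, 0.318 and 0.342 of Klc1 in WT and at 0.272 and 0.212 in Flox. Both ratios were lower in each Flox library than in every WT library. Dctn1 went from 1.55, 1.39 and 1.33 times the level of Dctn2 to 1.06 and 0.71 times. In the other direction, Dync1i2 stood at 0.367, 0.376 and 0.375 of Dync1i1 in WT and at 0.455 and 0.647 in Flox, and Kif5b at 0.263, 0.256 and 0.272 of Kif5a in WT and at 0.317 and 0.405 in Flox. As shares of the summed level of their group, Kif3c made up 16.8% ± 1.8 of the kinesin-2 motors in the 3 WT libraries and 10.4% ± 2.0 in both Flox libraries (mean ± SD, likewise below), Klc2 23.7% ± 0.7 and 18.7% ± 2.6 of the kinesin light chains, Kif5b 13.6% ± 0.3 and 17.1% ± 1.7 of the kinesin-1 heavy chains, and Dync1i2 27.1% ± 0.3 and 35.3% ± 5.7 of the dynein 1 intermediate chains.

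**Figure D4:**
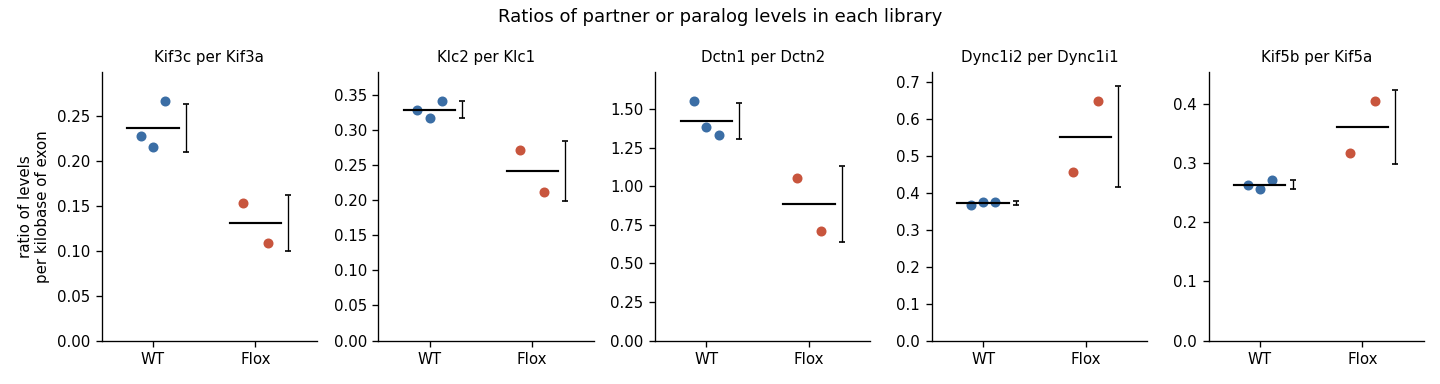
Ratios of normalized counts per kilobase of exon between subunits or paralogs of the same complex, in each library. Points are libraries, lines are means and error bars are SD (3 WT and 2 Flox libraries), and the ratios of Kif3c, Klc2 and Dctn1 are lower and those of Dync1i2 and Kif5b higher in both Flox libraries.

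The adaptors and regulators that couple motors to cargo were a list of 41 genes, of which 39 were tested. In DESeq2, 0 were higher and 6 were lower in Flox, against 4.2% and 4.05% of all genes tested. The 6 were 15.4% of those tested, beside 15.2% of the 4612 genes with a mean of at least 1000 normalized counts. The list was not matched for level. An unadjusted p under 0.05 in DESeq2 was reached by 11, against 3192 of all 15724 genes tested. The median log2 fold change was -0.07, and in 16 genes both Flox libraries were below WT while in 2 they were above, against 22.0% and 20.0% of all genes with a mean of at least 10 normalized counts. Trak1, which links kinesin-1 and dynein to mitochondria, had 3585, 3359 and 3181 normalized counts in WT and 2631 and 2031 in Flox, which gives a log2 fold change of -0.53 (SE 0.131) at an adjusted p of 0.00246 in DESeq2. Bicdl1, a dynein adaptor for vesicles, had 924, 930.4 and 911 normalized counts in WT and 701 and 553 in Flox, which gives a log2 fold change of -0.56 (SE 0.142) at an adjusted p of 0.00385 in DESeq2. Both were lower in each Flox library. The other 4 were Rab11fip3, an adaptor of recycling endosomes (-0.39), Mapk8ip1, a scaffold that binds kinesin light chains (-0.44), Spag9, a further scaffold of this kind that binds both motors (-0.29) and Clstn1, a membrane cargo receptor of kinesin-1 (-0.31), all as log2 fold changes past an adjusted p of 0.05 in DESeq2. Each of the 6 missed the threshold in edgeR, with adjusted p between 0.0527 and 0.0998. Pafah1b1, which codes for the dynein regulator LIS1, had 10077, 10184 and 11263 normalized counts in WT and 9234 and 8729 in Flox, a difference that did not pass in DESeq2 (log2 fold change -0.23, adjusted p = 0.154).

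The 7 genes that passed also differed in base composition, which the choice of genes did not use. The 3 higher genes had a GC content of 40.9% to 47.1% in their longest transcript and the 4 lower genes one of 51.6% to 60.4%. Over the 42 motor genes with a mean of at least 100 normalized counts, the log2 fold change and GC content had a Pearson's r of -0.46 and a Spearman's rho of -0.44, against -0.065 and -0.069 over 11511 genes of all kinds. These are descriptions across genes that share the same 5 libraries, and genes are not independent replicates. With exon length the r was -0.11 for the motor genes and -0.24 for all genes. All 7 genes still passed in DESeq2 after the trend with GC content was removed (8.72% of all genes then passed). They also passed after the trend with length was removed. The GC trend was taken over all genes, where it is weak. Removing it moved Kif3c from -0.67 to -0.66 on the log2 scale, and Klc2, which moved most of the 7, from -0.47 to -0.42. This setting therefore cannot decide whether the relation within the motor genes bears on the 7 genes. Whether base composition has a part in these differences was not tested further.

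**Figure D5:**
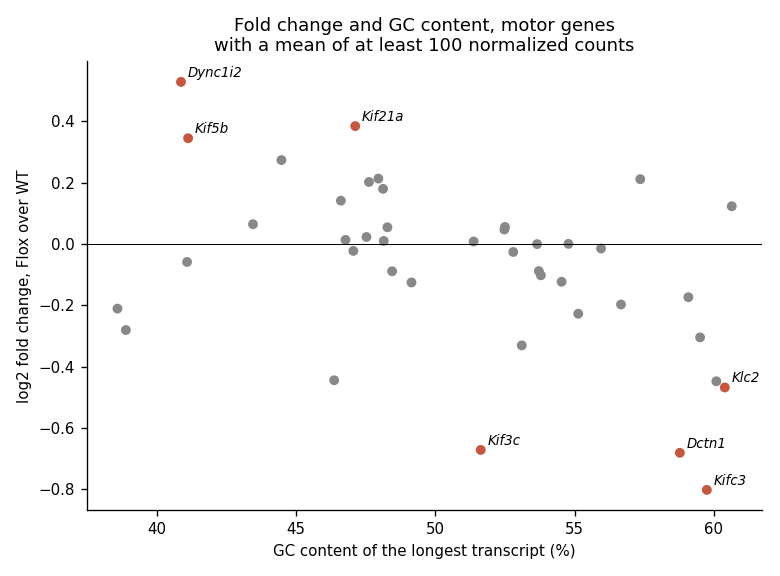
Log2 fold change of Esrrg Flox over Esrrg WT against the GC content of the longest transcript for the 42 motor genes with a mean of at least 100 normalized counts. Each point is a gene and colour marks those with an adjusted p under 0.05, of which the 3 higher genes lie at 40.9% to 47.1% GC and the 4 lower genes at 51.6% to 60.4%.

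The libraries did not keep strand, so reads in exons that overlap another gene could not be assigned with certainty. These overlaps were looked up after the values were seen. In the annotation used here 24 of the 70 motor genes share exon bases with another gene, among them 4 of the 7 that passed. The shared part of the exon bases is 40.7% for Kif3c, where it lies in antisense transcripts, 27.5% for Kifc3, 10.6% for Klc2 and 4.06% for Kif5b, while Dctn1, Dync1i2 and Kif21a share none. The antisense transcript 1110002L01Rik at Kif3c had 52.7, 38.7 and 45.2 normalized counts in WT and 41.3 and 37.8 in Flox (log2 fold change -0.20, SE 0.395). Levels of these genes per kilobase may be too low where such reads were dropped.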

How the data were processed

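RNA from BAC-TRAP of 5 pooled midbrain samples was sequenced as poly(A)-selected libraries without strand information. The authors trimmed the reads, aligned them with STAR, counted reads per gene with HTSeq-count and deposited raw counts per gene and library, with no normalization. The sources differ on the genome build. The methods name GRCm38 with GENCODE M24, while the submitters' processing notes list GRCm39, STAR 2.7.9a and HTSeq 0.11.3, so no coordinates of genes in the count table are given, and those of the RefSeq windows are on GRCm38.p6. HTSeq left unassigned, per library, 3.18% to 4.45% of reads outside genes, 5.62% to 5.78% that overlapped several genes and 3.60% to 4.23% that aligned to several places.

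Symbols, exon lengths and GC content came from GENCODE release M21, which named 52147 of the 53700 gene IDs (97.1%). Of the matched gene IDs, 99.9% had a higher version number in the count table than in M21. Lengths and exon overlaps may therefore differ from those of the annotation used for counting. Counts of all genes were fitted with DESeq2 1.42.0 in R 4.3.3 (default size factors, two-sided Wald test, independent filtering and Benjamini-Hochberg adjustment over all genes at 0.05), with Flox against WT and no covariate, after the study's methods. The fold threshold was 1.5 and the low-count mean was 10. Counts were normalized by dividing them by these size factors. edgeR 4.0.16 and the other settings given at the end were alternatives, and the fits were tested on simulated data. An exact permutation test of 3 against 2 libraries cannot pass 0.05 and was not used. Every pair of libraries differed by more than counting error (chi-square per degree of freedom 4.25 to 45.8). The motor genes and all lists were chosen with earlier results of these data known. Genes named were Esrrg and Th, motor genes past the threshold, the 5 largest changes each way at a mean of at least 10 normalized counts, the 10 highest levels per kilobase, and the subunits of kinesin-1, kinesin-2, dynein 1 and dynactin, and others named were chosen after their values were seen.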

Additional observations from a re-analysis of the deposited data

How the results depend on the processing

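All 7 motor genes past the threshold kept their direction under every alternative run, and all 7 passed with TMM library sizes, with a filter on low counts, among protein-coding genes only, with the length or the GC trend removed and without Flox replicate 2. In edgeR 0 higher and 2 lower motor genes passed. Against a null of a fold change under 1.5, 0 passed, beside 10 higher and 2 lower genes of the whole table. Leaving out 1 library at a time gave 0 to 4 higher and 0 to 7 lower motor genes, and 0 to 6 with a fold change of at least 1.5. The 0 values came without Flox replicate 4 and the largest without Flox replicate 2, where Kifap3, Dynlt3, Kifc2 and Kif17 also passed. Without WT replicate 2, 4 of the 7 passed, and without WT replicate 3, 5 of the 7.

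The labels give both groups the replicate numbers 2 and 4 without saying that a number marks a shared litter or day. The deviations of same-numbered libraries from their group means had r = 0.092 and 0.089 over 16178 genes. With the replicate number as a block, 1 higher gene and 4 lower genes passed (Kif21a and Kif5b were at adjusted p = 0.0539 and 0.104 in DESeq2), and 476 genes in all against 1297.

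The median log2 fold change of the motor genes was -0.017 with the block, 0.026 with the length trend and 0.015 with the GC trend removed, and -0.031 to 0.0098 with a library left out. Genes near 0 changed sign. The log2 fold change was -0.038 for Dctn2, -0.011 for Dctn3 and -0.0079 for Dctn5 with the block, -0.0071 for Dctn3 and -0.0082 for Dync1h1 with TMM library sizes, -0.18 for Dctn3, 0.0026 for Dync1i1 and 0.025 for Klc1 with the length trend removed, and 0.0092 for Klc1 with the GC trend removed. With 1 library left out it ran from -0.046 to 0.12 for Dctn2, -0.043 to 0.057 for Dctn3, -0.021 to 0.060 for Dctn5, -0.055 to 0.051 for Dync1h1, -0.085 to 0.028 for Dync1i1, -0.040 to 0.075 for Kif5c, -0.068 to 0.034 for Klc1 and -0.16 to 0.026 for Th. The cause was not tested. Only 2 Flox pools stand behind each value, and genes under about 10 counts could not be judged at this depth.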

Other observations

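The microtubules along which these motors run were looked at through 2 further lists. Of 28 tested microtubule-associated proteins, 4 were higher in Flox and 3 lower at an adjusted p under 0.05 in DESeq2. The median log2 fold change was -0.02. Those that passed were 25.0% of the 28, against 8.25% of all genes tested. Among the 4612 genes with a mean of at least 1000 normalized counts 15.2% passed, and the list was not matched for level. In edgeR 0 of the 28 passed. An unadjusted p under 0.05 was reached by 12 in each tool, against 3192 (DESeq2) and 3694 (edgeR) of all 15724 genes tested. The higher genes were Map1b, which has a role in axon growth, with 30651, 31023 and 22442 normalized counts in WT and 41134 and 45471 in Flox (0.63 on the log2 scale with an SE of 0.142, adjusted p = 0.000794 in DESeq2), Map9 (0.38), and the tubulin-sequestering stathmins Stmn1 (0.36) and Stmn3 (0.39). The lower genes were Map6, which stabilises microtubules (-0.42), and the plus-end binding proteins Clip2 (-0.46) and Mapre2 (-0.36).

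Of 14 tubulin genes, Tuba1b, an alpha-tubulin, rose from 13150, 13689 and 11511 normalized counts in WT to 17814 and 22246 in Flox (0.65 on the log2 scale with an SE of 0.126, adjusted p = 5.69e-05 in DESeq2, edgeR adjusted p = 0.0436). Tubg1, the gamma-tubulin that nucleates microtubules, was lower, with 1645, 1483 and 1836 normalized counts in WT and 1390.0 and 944 in Flox (-0.50 on the log2 scale with an SE of 0.167, adjusted p = 0.0375 in DESeq2, edgeR adjusted p = 0.112). These 2 were 14.3% of the 14, against 8.25% of all genes tested and 15.2% of those with a mean of at least 1000 normalized counts. In both genes the groups did not overlap. The summed level of microglia markers also differed between the groups, and its part in these values was not tested.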
